A study of Mus musculus with 3 samples.

Results

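Transcripts of 9 non-fibrillar collagen genes were followed in cultured mouse hepatic stellate cells labelled with 3 genotypes. The genes were taken by name and not by their values, and make up 9 of the 17870 genes listed in any library. They are the collagen VI chain genes Col6a1, Col6a2 and Col6a3, the fibril-associated collagen genes Col12a1, Col14a1 and Col16a1, the multiplexin genes Col15a1 and Col18a1, and the network-forming collagen gene Col8a1. The last 3 genes are neither collagen VI nor fibril-associated collagens in the strict sense and are kept as their own classes.

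The cells were primary hepatic stellate cells, which store retinoids and lie along the sinusoids of the liver, from male C57BL/6 mice aged 24 weeks. There was 1 library each of cells labelled TLR4-/-, CD44-/- and wild type. TLR4 senses bacterial lipopolysaccharide, and CD44 binds hyaluronan in the matrix. In all 3 groups, livers were perfused with collagenase and pronase, stellate cells were enriched on a density gradient, macrophages were depleted with beads against CD11b, and the cells then spent 3 days in medium with 10% serum and 24 h without it. Neither the knockout alleles nor any pooling of animals is stated in the sources used. The series text speaks of triplicates, while 1 library per genotype was analysed here. It also names TLR4-/- in 2 places of its design sentence and CD44-/- in none there, so each genotype was taken from the label of its sample.

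Collagen VI is built from an alpha 1, an alpha 2 and an alpha 3 chain in equal parts, and forms beaded microfilaments next to cells and basement membranes. Fibril-associated collagens do not form fibrils themselves: collagens XII and XIV sit on the surface of collagen I fibrils, and collagen XVI lies with fibrils or microfibrils. Collagens XV and XVIII are proteoglycans of basement membrane zones, and a fragment cut from the end of collagen XVIII is endostatin. Stellate cells that turn into myofibroblasts after liver injury are a main source of scar collagen, and collagen VI is among the collagens that increase in liver fibrosis.

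The libraries held 23659074 expected counts (labelled TLR4-/-), 21460725 (CD44-/-) and 24078669 (wild type). Cd44 stood at 2.57 FPKM in the CD44-/- library, against 17.2 FPKM in wild type. Tlr4 stood at 10.9 FPKM in the library labelled TLR4-/-, against 15.8 FPKM in wild type, so its level does not settle that label, and the sample is called the library labelled TLR4-/- throughout. FPKM scales the fragments of a gene by the length of its transcript and the total of its library, so levels of different genes can be set side by side. Of 16 stellate cell markers, 15 reached 1 FPKM in each library, among them the retinol esterifying enzyme gene Lrat (150, 267 and 215 FPKM in the library labelled TLR4-/-, CD44-/- and wild type) and the intermediate filament gene Des (97.1, 82.3 and 105.2 FPKM), while the glial filament gene Gfap stayed at 0.30, 0.80 and 0.59 FPKM. Summed FPKM of 16 macrophage markers was 22.3, 536 and 52.1 in the same order, and that of 9 hepatocyte markers 2.17, 0.39 and 10.4. Lyz2 alone gave 11.1, 362 and 31.4 FPKM of the macrophage sums. Alb alone gave 1.22, 0.16 and 9.14 FPKM of the hepatocyte sums. For 14 endothelial markers the sum was 67.0, 58.4 and 119, mostly from Esam (40.8, 18.2 and 29.2 FPKM) and Egfl7 (21.4, 23.9 and 31.4 FPKM). Cdh5 (0.91, 2.58 and 12.3 FPKM) and Pecam1 (0.37, 1.92 and 8.09 FPKM) differed far more. Against wild type, 11 of 12 measured endothelial markers lay below 0 in the library labelled TLR4-/-, all but Esam. In CD44-/- all 12 lay below 0. Of the 8 endothelial markers measured between the library labelled TLR4-/- and CD44-/-, 7 had a log2 ratio below 0 (median -0.90), although the sum was higher in the library labelled TLR4-/-. The sum of 9 mesothelial markers was 2.32, 2.21 and 5.11. Several other sums rested on 1 gene. For 12 portal fibroblast markers, a list that holds Col15a1, the sum was 93.9, 53.2 and 72.5, of which Fbln2 gave 84.1, 21.5 and 41.6 FPKM. In the library labelled TLR4-/- against wild type, 4 of the 5 measured portal fibroblast markers had a log2 ratio below 0 (median -0.67), and 2 were called lower, Gas6 (4.07 against 21.2 FPKM) and Thy1 (0.12 against 1.62 FPKM). In CD44-/- against wild type, 3 of 6 lay below 0 (median -0.15). For 6 biliary markers the sum was 129.7, 59.9 and 128.7, of which Spp1, also in the list of activated stellate cell markers, gave 125.9, 57.4 and 125.2 FPKM. Sox9 had 1.76, 1.82 and 0.59 FPKM. For 7 vascular smooth muscle markers the sum was 139, 126 and 175, mostly from Des. Timd4, Cps1, Hnf4a, Cftr, Epcam, Pi16, Mfap4, Muc16 and Bnc1 stayed under 0.05 FPKM in every library. In bulk RNA, fewer cells of a type and less RNA per cell cannot be told apart.

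Col14a1 was the most abundant of the 9 genes in every library, and Col15a1 was close to absent. Of the 9 genes, 8 reached 1 FPKM in at least 1 library and are called measured below. The order of levels was Col14a1, Col6a1 and Col6a2 at the top and Col8a1, Col18a1 and Col15a1 at the bottom in all 3 libraries. The middle of the order differed. Col6a3 ranked 4 of 9 in the library labelled TLR4-/-, 5 in CD44-/- and 6 in wild type, and Col12a1 ranked 5, 6 and 4. Col16a1 ranked 6, 4 and 5. Summed over the 9 genes, FPKM was 352 in the library labelled TLR4-/-, 466 in CD44-/- and 428 in wild type. That is 9.90%, 14.1% and 11.1% of the FPKM of all collagen genes in the same libraries. Without replicates no neighbours in this order can be tested. In wild type, Col12a1 had 27.8 FPKM (7896 reads, 95% Poisson interval 7723 to 8072) and Col16a1 23.9 FPKM (3036 reads, 2929 to 3146). These intervals are on reads, before scaling by length (11659 and 5222 bases), so they do not bear directly on the order by FPKM.

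**Figure D1:**
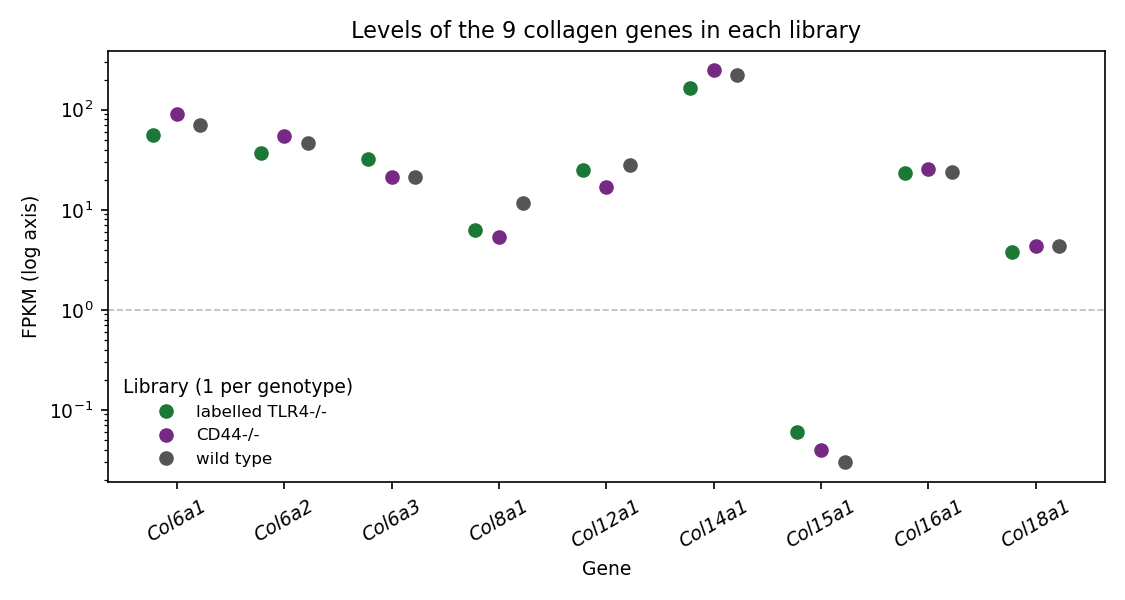
FPKM (log axis) of the 9 collagen genes in the library labelled TLR4-/- (green), CD44-/- (purple) and wild type (grey), with 1 point per library and a dashed line at 1 FPKM. Col14a1 lies highest, between 167 and 247 FPKM, and Col15a1 lowest, at 0.03 to 0.06 FPKM.

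Few of these genes differed 2-fold between libraries. A gene was called different where log2 of the ratio of FPKM + 1 was at least 1 or at most -1. For the library labelled TLR4-/- against wild type, 0 of the 8 measured genes were called higher, beside 1.04% of 12098 genes, and 0 were called lower, beside 2.69% (3.74% either way). In CD44-/- against wild type, 0 were called higher, beside 2.24% of 12247 genes, and 1, Col8a1, was called lower, beside 1.97% (4.21% either way). Set against CD44-/-, the library labelled TLR4-/- had 0 genes called higher, beside 1.32% of 12168 genes, and 0 lower, beside 3.44% (4.76% either way). With 8 genes, these counts are near the share of all genes called. The median log2 ratio of the 8 genes was -0.23 in the library labelled TLR4-/- against wild type, with 7 of 8 below 0, while the median over all measured genes was 0.03. In CD44-/- against wild type their median was 0.06, with 5 of 8 above 0, and the median over all genes was 0.03. Between the library labelled TLR4-/- and CD44-/- it was -0.13, and 0.01 over all genes. Both sets of ratios to wild type share the same wild-type library.

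Smaller differences were described by the ratio of FPKM with a 95% interval that covers counting error only. This interval for the library labelled TLR4-/- against wild type lay wholly below 1 for 6 of the 8 genes and wholly above 1 for Col6a3, against 29.1% and 34.4% of all measured genes. In CD44-/- it lay below 1 for 2 genes, Col8a1 and Col12a1, and above 1 for 4, against 25.2% and 31.6% of all genes. Between the library labelled TLR4-/- and CD44-/- it lay below 1 for 4 genes and above 1 for 3, against 29.9% and 31.6%. At this depth, counting error was thus small for most genes, and the spread between cultures of 1 genotype, which the files do not hold, is not part of these intervals. Whether an interval leaves out 1 also depends on the reads of a gene. The shares over all genes were not matched for reads, so they are no like-for-like measure for these genes.

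**Figure D2:**
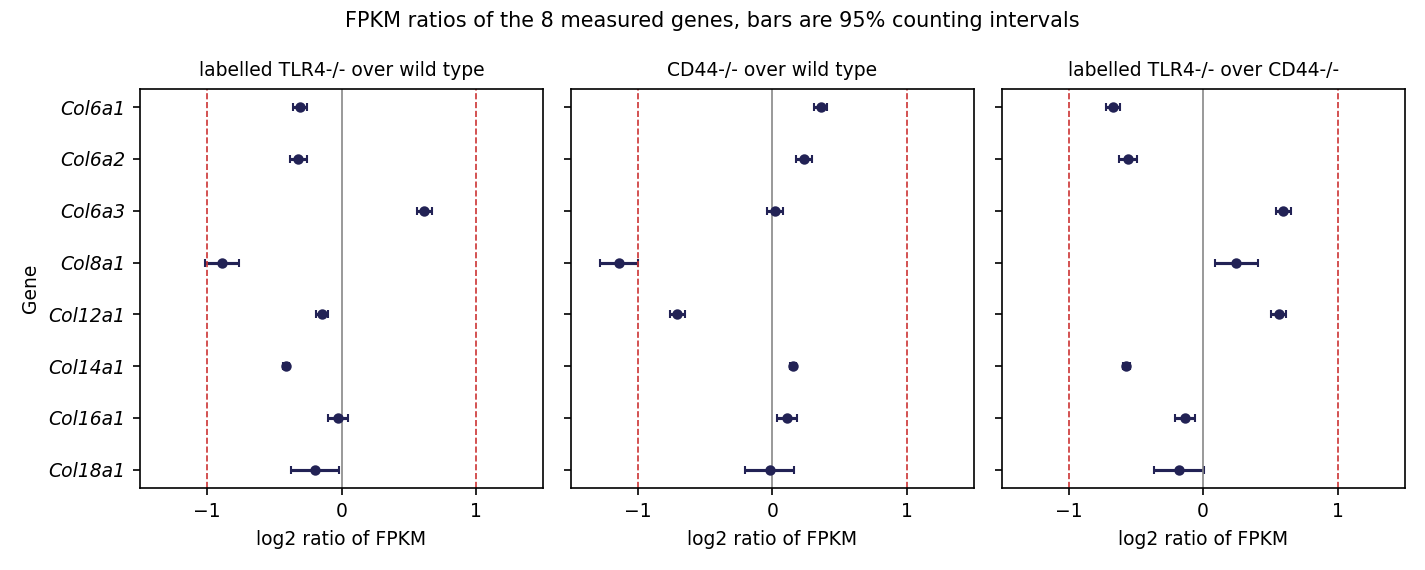
Log2 ratios of FPKM for the 8 measured genes in the library labelled TLR4-/- over wild type, CD44-/- over wild type and the library labelled TLR4-/- over CD44-/-. Bars are 95% counting intervals and dashed lines mark 2-fold: only the Col8a1 point in the middle panel lies past a dashed line, and Col6a3 lies apart from Col6a1 and Col6a2 in the left and right panels.

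The chain genes of collagen VI did not differ together. In the library labelled TLR4-/-, Col6a1 and Col6a2 were lower than in wild type while Col6a3 was higher. In CD44-/-, Col6a1 and Col6a2 were higher than in wild type while Col6a3 stood at almost the same level. Col6a1 encodes the alpha 1 chain (Entrez 12833, chromosome 10, 76708792 to 76726044, GRCm38.p6). It stood at 56.5 FPKM in the library labelled TLR4-/-, 89.9 FPKM in CD44-/- and 70.1 FPKM in wild type, from 5371, 7752 and 6779 reads. Its ratio to wild type was 0.806 (95% counting interval 0.778 to 0.836) in the library labelled TLR4-/- and 1.28 (1.24 to 1.33) in CD44-/-. CD44-/- was thus the highest library for this gene and the library labelled TLR4-/- the lowest.

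Col6a2 encodes the alpha 2 chain (Entrez 12834, chromosome 10, 76595756 to 76623630). It stood at 37.3 FPKM in the library labelled TLR4-/-, 55.0 FPKM in CD44-/- and 46.6 FPKM in wild type, from 3315, 4427 and 4214 reads. The ratios to wild type were 0.801 (0.765 to 0.838) and 1.18 (1.13 to 1.23), so the libraries stood in the same order as for Col6a1.

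Col6a3 encodes the alpha 3 chain, the largest of the chains, whose end is cut off and circulates as endotrophin (Entrez 12835, chromosome 1, 90766860 to 90844001). It stood at 32.5 FPKM in the library labelled TLR4-/-, 21.4 FPKM in CD44-/- and 21.2 FPKM in wild type, from 7467, 4425 and 4865 reads. The ratio to wild type was 1.53 (1.48 to 1.59) in the library labelled TLR4-/- and 1.01 (0.973 to 1.06) in CD44-/-. Here the library labelled TLR4-/- stood above both others. Of all measured genes, 4.36% had a log2 ratio at least as high as the 0.59 of Col6a3 in that comparison, whereas 16.8% and 16.4% lay as low as Col6a1 and Col6a2. The authors' table combines 2 transcripts for Col6a3 and gives a gene length of 9609 bases in the library labelled TLR4-/-, 9502 in CD44-/- and 9432 in wild type. The plain ratio of reads, which uses neither that length nor the library totals, was 1.53 as well for the library labelled TLR4-/- against wild type. In the other comparisons the plain ratio departed from the FPKM ratio. It was 0.910 beside 1.01 for CD44-/- against wild type. For the library labelled TLR4-/- against CD44-/- it was 1.69 beside 1.51.

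Within a library, the balance of the chain genes differed at Col6a3. Its FPKM was 0.574 of that of Col6a1 (0.554 to 0.595) in the library labelled TLR4-/-, 0.238 (0.230 to 0.247) in CD44-/- and 0.302 (0.291 to 0.313) in wild type. Col6a2 over Col6a1 was 0.661 (0.633 to 0.690), 0.611 (0.589 to 0.635) and 0.666 (0.640 to 0.692) in the same order, a much narrower range. Col6a3 made up 25.7% of the summed FPKM of the chain genes in the library labelled TLR4-/-, 12.9% in CD44-/- and 15.3% in wild type. The sum itself was 126, 166 and 138 FPKM. Directly compared, the library labelled TLR4-/- over CD44-/- had a ratio of 0.628 (0.607 to 0.651) for Col6a1, 0.679 (0.649 to 0.710) for Col6a2 and 1.51 (1.46 to 1.57) for Col6a3. The alternative alpha chains were nearly absent: Col6a4 had 3, 6 and 4 reads in the library labelled TLR4-/-, CD44-/- and wild type, Col6a5 had 2 reads in wild type and none listed in the others, and Col6a6 was listed in none.

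**Figure D3:**
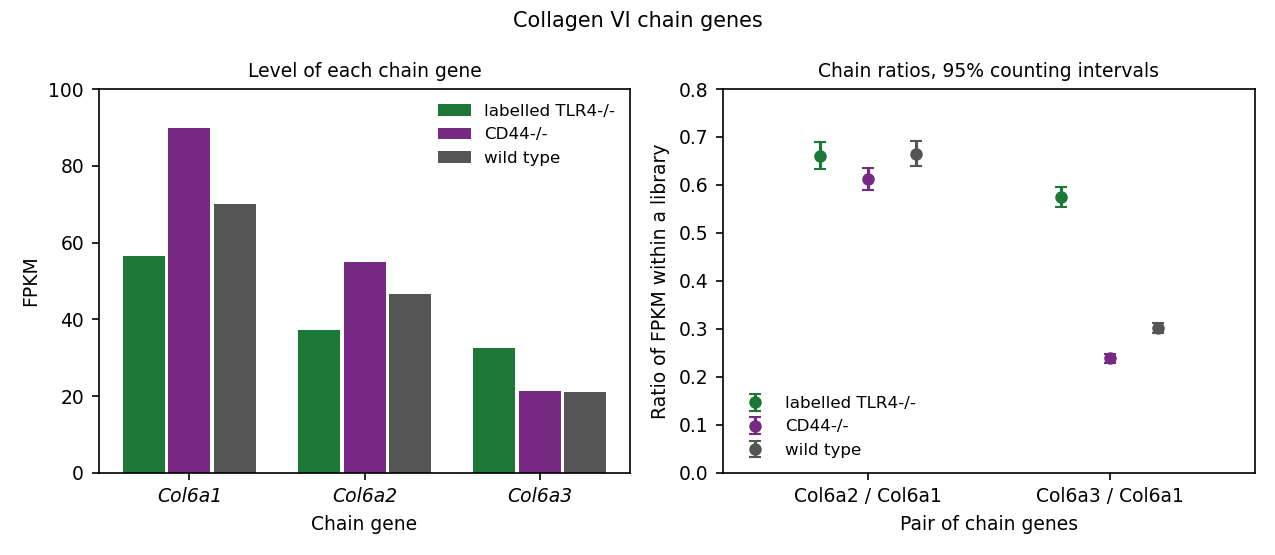
Left, FPKM of the collagen VI chain genes in the library labelled TLR4-/- (green), CD44-/- (purple) and wild type (grey). Right, FPKM of Col6a2 and Col6a3 relative to Col6a1 within each library, with 95% counting intervals: Col6a2 over Col6a1 lies between 0.611 and 0.666, while Col6a3 over Col6a1 is 0.574 in the library labelled TLR4-/- and 0.238 and 0.302 in the others.

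Stellate cell markers mostly lay within 2-fold. The 15 measured markers had a median log2 ratio of -0.35 in the library labelled TLR4-/- against wild type, with 12 of them below 0, beside 5538 of all 12098 genes. Of these markers, 0 were called higher and 1 lower, the collectin gene Colec11 (14.1 against 94.4 FPKM). Their median was 0.30 in CD44-/- against wild type, with 12 of them above 0, beside 6693 of 12247 genes, and 0 were called. Their part in the result was not tested. Macrophage markers summed to 22.3 FPKM in the library labelled TLR4-/-, 536 in CD44-/- and 52.1 in wild type, and their part was not tested either.

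Sequences just before the start sites are shown for the collagen VI chain genes and for Col8a1, because Col6a1 and Col6a2 differed together, Col6a3 differed apart from them, and Col8a1 was the gene called different. They are RefSeq sequences on the GRCm38.p6 build, the 250 bases before each annotated start, all from the minus strand, and a promoter entry was found for 7 of the 9 genes. Capitals mark 4 short motifs: the TATA box TATAAA, the CCAAT box spelled CCAAT, the GC box GGGCGG and the core of TEAD binding sites GGAATG. Both strands were searched, so a match can also stand as the reverse complement of these letters.
Col6a1 (chr10:76726045-76726294): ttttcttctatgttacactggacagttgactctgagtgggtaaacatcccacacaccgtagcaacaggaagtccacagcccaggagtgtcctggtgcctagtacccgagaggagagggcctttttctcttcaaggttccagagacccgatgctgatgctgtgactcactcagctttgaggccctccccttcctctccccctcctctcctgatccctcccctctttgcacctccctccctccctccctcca
Col6a2, inner start (chr10:76623405-76623654): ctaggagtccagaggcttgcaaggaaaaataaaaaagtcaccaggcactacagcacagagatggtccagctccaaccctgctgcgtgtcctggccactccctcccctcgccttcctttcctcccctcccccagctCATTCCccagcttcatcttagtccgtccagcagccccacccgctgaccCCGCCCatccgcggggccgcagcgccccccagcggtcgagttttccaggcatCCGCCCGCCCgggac
Col6a2, outer start (chr10:76623631-76623880): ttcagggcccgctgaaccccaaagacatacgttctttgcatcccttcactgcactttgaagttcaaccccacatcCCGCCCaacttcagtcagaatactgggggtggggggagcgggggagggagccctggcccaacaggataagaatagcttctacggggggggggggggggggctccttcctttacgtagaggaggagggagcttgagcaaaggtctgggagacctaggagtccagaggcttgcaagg
Col6a3 (chr1:90843972-90844221): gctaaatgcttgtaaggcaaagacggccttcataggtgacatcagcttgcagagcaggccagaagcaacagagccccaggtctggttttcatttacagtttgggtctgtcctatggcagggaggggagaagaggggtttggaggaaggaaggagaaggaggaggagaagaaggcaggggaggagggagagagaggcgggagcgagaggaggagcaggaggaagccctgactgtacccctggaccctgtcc
Col8a1 (chr16:57754738-57754987): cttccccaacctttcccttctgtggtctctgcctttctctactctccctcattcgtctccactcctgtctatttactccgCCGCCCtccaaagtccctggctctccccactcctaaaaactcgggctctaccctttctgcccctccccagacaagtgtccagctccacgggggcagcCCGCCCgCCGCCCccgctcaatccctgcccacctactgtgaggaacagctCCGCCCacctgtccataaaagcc

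The Col6a1 and Col6a3 windows held 0 matches to any of these motifs. The inner Col6a2 window held 3 GGGCGG matches, of which a pair overlap, and 1 GGAATG match. The outer Col6a2 window held 1 GGGCGG match and the Col8a1 window 4. Apart from that pair, no matches in these windows overlapped. Of 32851 promoter windows of the same length, 32.7% held GGGCGG, 12.6% GGAATG, 33.8% CCAAT and 12.4% TATAAA. GC content was 56.0% for Col6a1, 64.4% and 59.2% for the inner and outer Col6a2 windows, 57.2% for Col6a3 and 60.8% for Col8a1, against a median of 52.4% over all windows. These matches describe the letters of the windows and are not binding sites.

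Among the fibril-associated collagens, Col14a1 was lower in the library labelled TLR4-/- and Col12a1 was lower in CD44-/-, while Col16a1 differed little. Col14a1 (Entrez 12818, chromosome 15, 55307644 to 55520803) encodes collagen XIV, which coats fibrils and binds decorin. It stood at 167 FPKM in the library labelled TLR4-/-, 247 FPKM in CD44-/- and 222 FPKM in wild type, from 25737, 34672 and 34904 reads. Its ratio to wild type was 0.750 (0.738 to 0.763) in the library labelled TLR4-/- and 1.11 (1.10 to 1.13) in CD44-/-. The library labelled TLR4-/- was the lowest of the 3. Col14a1 alone held 47.4%, 53.1% and 51.9% of the FPKM of the 9 genes in the library labelled TLR4-/-, CD44-/- and wild type, and ranked 409, 263 and 314 by FPKM among the 16380, 16429 and 16811 genes listed there.

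Col12a1 (Entrez 12816, chromosome 9, 79598987 to 79721141) encodes collagen XII, the long fibril-associated collagen of tissues under tension. It stood at 25.1 FPKM in the library labelled TLR4-/-, 17.0 FPKM in CD44-/- and 27.8 FPKM in wild type, from 7015, 4314 and 7896 reads. Its ratio to wild type was 0.904 (0.875 to 0.934) and 0.613 (0.590 to 0.636). CD44-/- was the library set apart: 4.34% of all measured genes had a log2 ratio as low as its -0.67. Col14a1 over Col12a1 was accordingly 6.63 (6.46 to 6.81) in the library labelled TLR4-/-, 14.5 (14.1 to 15.0) in CD44-/- and 7.99 (7.80 to 8.19) in wild type.

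Col16a1 (Entrez 107581, chromosome 4, 130047817 to 130099277) encodes collagen XVI. It stood at 23.5 FPKM in the library labelled TLR4-/-, 25.8 FPKM in CD44-/- and 23.9 FPKM in wild type, from 2935, 2917 and 3036 reads. The ratio to wild type was 0.984 (0.935 to 1.04) in the library labelled TLR4-/- and 1.08 (1.02 to 1.13) in CD44-/-. The 3 libraries lay closer together for this gene than for the other measured fibril-associated collagens.

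The multiplexin genes were low. Col18a1 (Entrez 12822, chromosome 10, 77052178 to 77166530), the endostatin precursor gene, stood at 3.82 FPKM in the library labelled TLR4-/-, 4.32 FPKM in CD44-/- and 4.38 FPKM in wild type, from 467, 479 and 542 reads. Its ratio to wild type was 0.872 (0.769 to 0.989) and 0.986 (0.870 to 1.12). Reads of its transcripts from different start sites were summed by the authors, so these cannot be told apart here. Col15a1 (Entrez 12819, chromosome 4, 47207655 to 47313167), a gene that also marks portal fibroblasts, had 8 reads in the library labelled TLR4-/- (95% Poisson interval 3.45 to 15.8), 5 in CD44-/- (1.62 to 11.7) and 4 in wild type (1.09 to 10.2). These intervals overlap, and a difference was not detectable at this depth.

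Col8a1 was lower in both knockout-labelled libraries than in wild type and was the only one of the 8 measured genes called different. It encodes a short-chain collagen of vessel walls and remodelling tissue (Entrez 12837, chromosome 16, 57624256 to 57754737). It stood at 6.28 FPKM in the library labelled TLR4-/-, 5.29 FPKM in CD44-/- and 11.6 FPKM in wild type, from 766, 585 and 1445 reads. The ratio to wild type was 0.540 (0.494 to 0.589) in the library labelled TLR4-/- and 0.454 (0.412 to 0.501) in CD44-/-. On the log2 scale of FPKM + 1 these were -0.80 and -1.01, so CD44-/- passed the limit of -1 narrowly and its counting interval included 2-fold. Of all measured genes, 4.07% and 1.94% lay as low in these comparisons. The library labelled TLR4-/- over CD44-/- had a ratio of 1.19 (1.06 to 1.32). Expected counts of Col8a1 were not whole numbers, which means that some reads were divided by estimate between this gene and others.

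Col8a2, whose product can join that of Col8a1, had 0.13, 0.12 and 0.19 FPKM in the library labelled TLR4-/-, CD44-/- and wild type. It stood at 0.0207 (0.0110 to 0.0356), 0.0227 (0.0113 to 0.0409) and 0.0163 (0.00994 to 0.0253) of Col8a1, so Col8a1 supplied nearly all collagen VIII transcripts in each library. Endothelial markers were lower in the same libraries as Col8a1: of 12 measured markers, 9 were called lower for the library labelled TLR4-/- against wild type, with a median log2 ratio of -2.09, and 7 for CD44-/-, with a median of -1.22. Of 14 measured markers of activated stellate cells and myofibroblasts, a list that holds Col1a1 and Col3a1, 4 and 5 were called lower, with medians of -0.68 and -0.82, and summed FPKM was 3760, 3125 and 4351 in the library labelled TLR4-/-, CD44-/- and wild type. Of 5 measured smooth muscle markers, 2 and 1 were called lower, with medians of -0.74 and -0.35. The part of these cell types or states in the Col8a1 values was not tested.

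**Figure D4:**
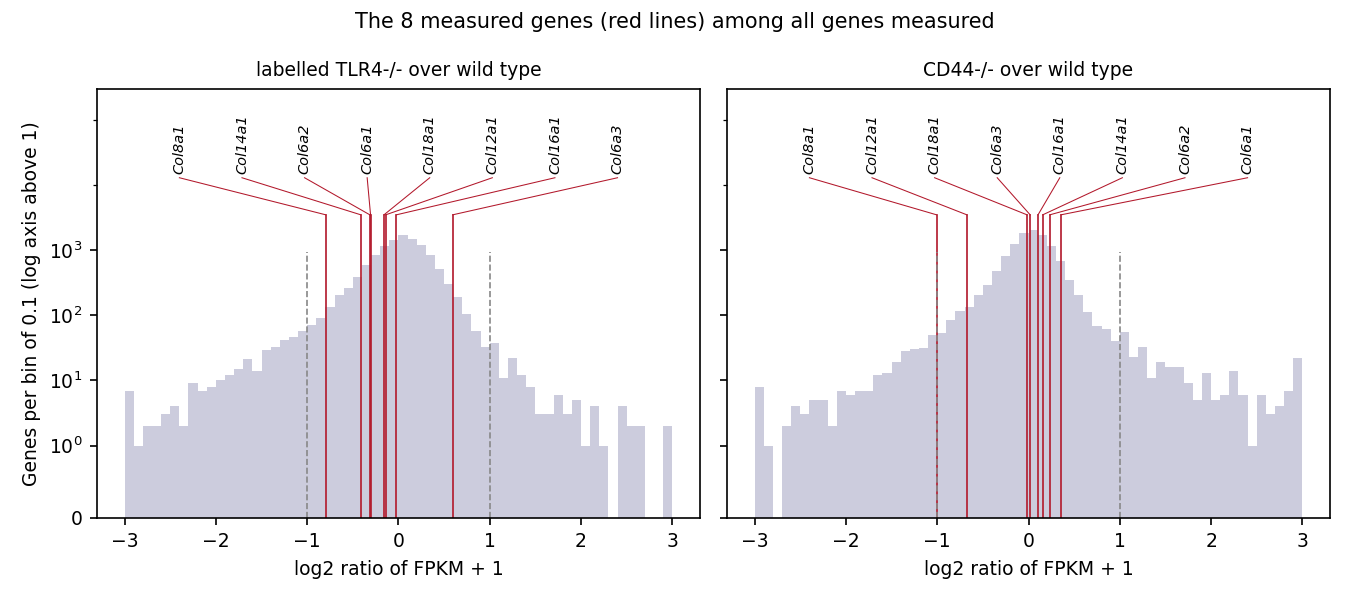
Number of measured genes (grey bars, bins of 0.1, log axis above 1) by log2 ratio of FPKM + 1, for the library labelled TLR4-/- over wild type and for CD44-/- over wild type; values past 3 or -3 are counted in the end bins. Red lines mark the 8 measured collagen genes and dashed lines 2-fold: Col8a1 is lowest in both panels, at -0.80 and -1.01, and Col6a3 is highest on the left at 0.59.

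The patterns of the chain genes were also compared with those of other genes. Likeness was the distance between the pairs of log2 ratios to wild type, over 3 libraries and among genes with at least 5 FPKM and 50 reads in each. Col6a2 lay at 0.12 from Col6a1, with 70 of 8061 genes nearer to Col6a1. Col6a3 lay at 0.96 from Col6a1, with 7402 genes nearer. Col14a1 lay at 0.13 from Col6a2 and 0.23 from Col6a1, with 120 and 438 genes nearer to Col14a1. The genes nearest to Col6a1 were Tmem200b (0.01), Pros1 (0.02) and Trim12c (0.02), and those near Col6a2 included Gla (0.01) and Rere (0.02). Zmynd19, Carnmt1 and Magohb (0.01 each) lay nearest to Col6a3. Ryk (0.005), Lactb (0.03) and Pigp (0.03) lay nearest to Col14a1, and Gfpt2 (0.04), Mtmr10 (0.05) and Dbf4 (0.05) nearest to Col12a1. Col8a1 had the fewest genes near it: only Hes1 lay within 0.1 (0.09), followed by Akr1b8 (0.10) and Gask1b (0.11), whereas 658 genes lay within 0.1 of Col16a1, the nearest being Dnajc18, Odf2l and Aagab (0.01 each). Col15a1 and Col18a1 did not reach the level asked of compared genes. The genes nearest to their ratios were Rpl5, Cactin and Mon2 for Col15a1, and Smpd1, Srebf1 and Tmem135 for Col18a1, with 862 and 497 genes within 0.1. With 3 libraries, many genes share any pattern near 0, and likeness says nothing of shared control.

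Other collagens were set beside these genes. Of 11 fibrillar collagen genes, 8 were measured. For the library labelled TLR4-/- against wild type, 0 were called higher and 1 lower, Col27a1 (0.96 against 3.34 FPKM), with a median log2 ratio of -0.55. In CD44-/-, 0 were called higher and 1 lower, with a median of -0.23: Col1a1, the main fibril collagen gene, stood at 205 against 588 FPKM in wild type, while Col3a1 stood at 696 against 384 FPKM. Col1a1 was also lower in the library labelled TLR4-/-, at 358 FPKM. Col24a1 had 0.46, 1.33 and 1.91 FPKM in the library labelled TLR4-/-, CD44-/- and wild type. Col1a1, a chain gene of the fibrils on which collagens XII and XIV sit, had a log2 ratio of -1.52 in CD44-/-. Col1a2, the other collagen I chain gene, had -0.09 there (175 against 186 FPKM) and -0.24 in the library labelled TLR4-/-. In CD44-/-, Col12a1 had -0.67 and Col14a1 0.16. Of 24 other non-fibrillar collagen genes, 4 were measured, with medians of -0.01 and -0.44 and 1 call, the basement membrane chain gene Col4a5 in CD44-/- (6.30 against 16.5 FPKM, and 8.12 in the library labelled TLR4-/-). The most abundant of them, Col4a1, had 1264, 879 and 1154 FPKM and Col4a2 had 699, 519 and 628 FPKM. The anchoring fibril gene Col7a1 had 1.43, 0.92 and 1.69 FPKM.

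Genes that fold, bind or cut these collagens mostly lay within 2-fold. All 18 genes of collagen folding and modification were measured, and 0 were called in either knockout-labelled library, with median log2 ratios to wild type of 0.04 (library labelled TLR4-/-) and -0.04 (CD44-/-). The collagen chaperone gene Serpinh1 stood at 1077, 711 and 745 FPKM in the library labelled TLR4-/-, CD44-/- and wild type. The endoplasmic reticulum chaperone gene Hsp90b1 had 524, 453 and 375 FPKM, the coat protein gene Sec24d 55.7, 43.8 and 41.0, and the prolyl isomerase gene Fkbp10 103.5, 76.8 and 103.2. Of 19 receptor genes, 16 were measured. The library labelled TLR4-/- had 0 of them called, with a median of -0.03. In CD44-/-, 0 were called higher and 1 lower, the collagen-binding integrin gene Itga2 (3.28 against 7.80 FPKM), with a median of -0.11. Antxr2, a receptor through which cells take up collagen VI, stood at 24.4, 13.7 and 15.4 FPKM. The collagen receptor kinase gene Ddr1 had 30.9, 57.1 and 37.1 FPKM and the syndecan gene Sdc4 46.4, 69.1 and 84.7. Cspg4, the gene of the collagen VI receptor NG2, stayed under 0.05 FPKM in every library.

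Of 22 matrix partner genes, 17 were measured. The library labelled TLR4-/- had 0 called higher and 1 lower, with a median of -0.07. That gene, Tgfbi, whose product binds collagen VI, stood at 25.1 FPKM in the library labelled TLR4-/-, 96.6 in CD44-/- and 68.8 in wild type. In CD44-/- 0 were called, with a median of 0.03. The fibulin gene Fbln2 had 84.1, 21.5 and 41.6 FPKM, the matrilin gene Matn2 17.1, 29.1 and 15.1, and the tenascin gene Tnc 57.2, 45.8 and 85.0. Decorin, which binds collagens VI and XIV, had 2951, 4337 and 2614 FPKM for its gene Dcn.

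Of 21 protease genes, 15 were measured. The library labelled TLR4-/- had 0 called higher and 3 lower, with a median of -0.27, and in CD44-/- 2 were called higher and 1 lower, with a median of 0.23. The higher ones in CD44-/- were Mmp12, with 4.03, 209 and 16.6 FPKM in the library labelled TLR4-/-, CD44-/- and wild type, and Ctss, with 2.46, 83.9 and 8.10 FPKM. Both are macrophage proteases, and macrophage markers were higher in the same library, with 13 of 13 measured markers called. Mmp10, a stromelysin, had 49.2, 13.1 and 121 FPKM, and Mmp3, another stromelysin, had 387, 319 and 598 FPKM. The part of macrophages in these values was not tested.

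**Figure D5:**
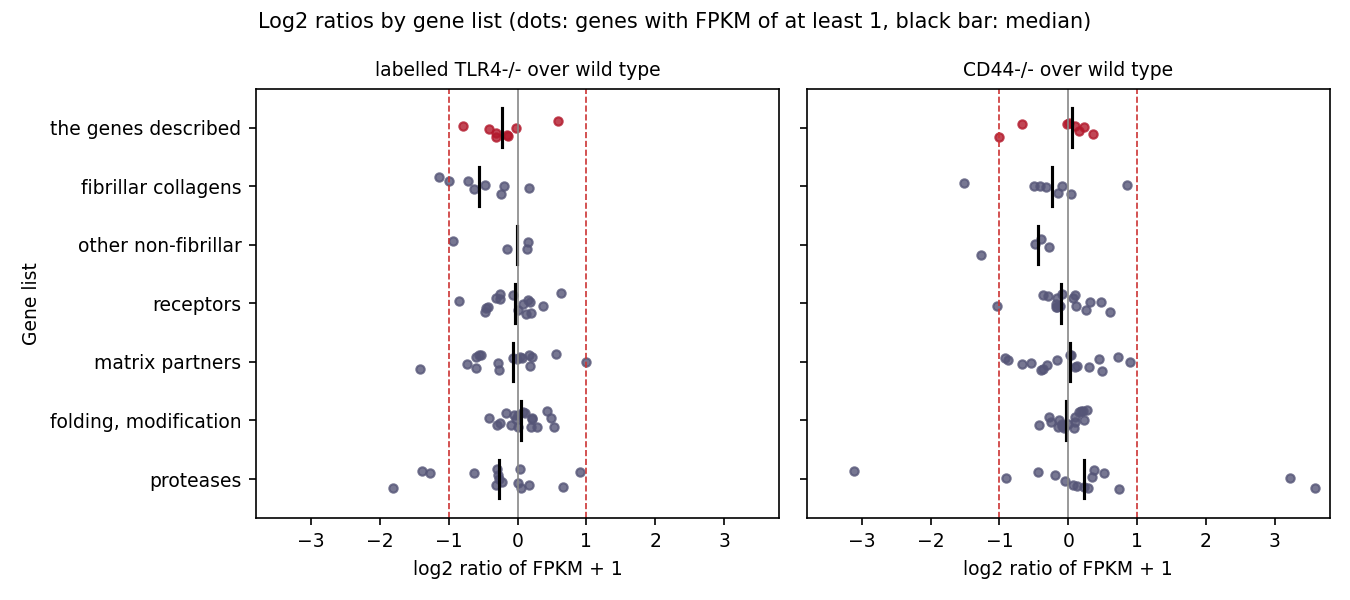
Log2 ratios of FPKM + 1 to wild type for the library labelled TLR4-/- (left) and CD44-/- (right) by gene list, with 1 dot per gene of at least 1 FPKM in either library, black bars at the medians and dashed lines at 2-fold. The collagen genes described (red) have medians of -0.23 and 0.06, and the fibrillar collagens -0.55 and -0.23.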

How the data were processed

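RNA of 3 libraries, 1 per genotype, was analysed from gene tables. The authors deposited for each gene an FPKM value and an expected count, which is an estimate of the reads and often not a whole number, per the file headers. Per the submitters' processing notes, RSEM and the mm10 build were used. The RSEM version, the handling of strand and any pooling are not stated in the sources used. Each table lists genes from 0.01 FPKM, and a missing gene was set to 0. Reads shared by similar genes are divided by estimate.

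Entrez numbers were matched to symbols in the RefSeq table of GRCm38.p6 (17824 of 17870), and 236 of 237 list entries matched. Differences were log2 of the ratio of FPKM + 1, among genes with at least 1 FPKM in either library, which understates changes of low genes. Ratios of FPKM carry exact conditional binomial (Clopper-Pearson) 95% intervals on rounded expected counts, and reads carry exact Poisson intervals. Both cover counting error only. With 1 library per genotype there was no test, no p-value and no replicate check.

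All 9 genes, Tlr4 and Cd44 are named. In other lists up to 4 genes with the largest absolute log2 ratio to wild type are named. Markers near 0 and a few other genes were added after their values were seen. These other genes were Lrat, Des, Gfap, Esam, Egfl7, Dcn, Cspg4, Col1a2, Col8a2 and the collagen VI paralogs. The 3 nearest genes by pattern were taken for each gene, without predicted genes; 1 of them is not reported here. Genes and lists were chosen with earlier results of these data known. The alternatives tried were rescaling to TPM, CPM scaled by TMM (edgeR 4.0.16), scaling by the median of ratios, a pseudocount of 0.1, a filter at 5 FPKM or none, and a counting interval past 2-fold. Proteins were not analysed here. Steps were tested on simulated data and run in Python 3.11.15 with scipy 1.17.1.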

Additional observations from a re-analysis of the deposited data

How the results depend on the processing

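Counts of the 9 genes past 2-fold were the same under the other pseudocount, filters and scalings in all 3 comparisons: 1 lower gene, Col8a1, in CD44-/- against wild type, and 0 elsewhere. Asking that the counting interval lie wholly past 2-fold gave 0 lower genes in CD44-/- against wild type, because the Col8a1 interval reached 0.501. Of 27 log2 ratios of single genes, 26 kept their sign under 5 settings. The exception was Col6a3 in CD44-/- against wild type, at 0.02 and, with median-of-ratios scaling, -0.006. Some values shifted by more than the reach of their counting interval. Median-of-ratios and TMM scaling each took Col14a1 from -0.41 to -0.44 in the library labelled TLR4-/- against wild type. In CD44-/- against wild type they took it from 0.16 to 0.13, and TMM scaling took Col12a1 from -0.67 to -0.73. Col8a1 ranged from -0.90 to -0.80 in the library labelled TLR4-/- and from -1.14 to -1.01 in CD44-/-, and Col6a3 from 0.57 to 0.61 in the library labelled TLR4-/-. Calls over all genes depended more on the settings. In the library labelled TLR4-/- against wild type, 126 genes were higher and 326 lower, against 214 and 504 with a pseudocount of 0.1, 75 and 183 with a filter at 5 FPKM, and 199 and 499 with TPM rescaling. In CD44-/- against wild type they were 274 and 241, against 391 and 386, 167 and 143, and 398 and 378 under the same settings. Between the library labelled TLR4-/- and CD44-/- they were 161 and 418, against 280 and 604, 104 and 265, and 255 and 602. No paired analysis was possible because each genotype has 1 library, and for the same reason no library could be left out of a comparison. The CD44-/- comparison with wild type does not use the library labelled TLR4-/-. Col15a1, with 4 to 8 reads, is limited by depth.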

Other observations

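Of the 9 genes, 3 lie in 1 stretch of chromosome 10, from the Col6a2 end at 76595756 to the Col18a1 end at 77166530 (GRCm38.p6, 571 kb), with 85.2 kb between Col6a2 and Col6a1 and 326 kb between Col6a1 and Col18a1. The annotation places 12 genes there, of which 5 were listed in a library. Besides Col6a2, Col6a1 and Col18a1, these were Pcbp3, an RNA-binding protein gene, and Slc19a1, the reduced folate carrier gene. Pcbp3 stood at 4.51 FPKM in the library labelled TLR4-/-, 4.16 FPKM in CD44-/- and 3.50 FPKM in wild type. Slc19a1 stood at 19.5 FPKM in the library labelled TLR4-/-, 7.32 FPKM in CD44-/- and 7.33 FPKM in wild type, a log2 ratio of 1.30 for the library labelled TLR4-/- against wild type and of -0.002 for CD44-/- against wild type. Genes of this stretch thus differed in both senses in the library labelled TLR4-/-: Col6a1 and Col6a2 were lower (log2 ratios -0.31 and -0.31) and Slc19a1 was higher. Neighbours were examined after the values of the chain genes were seen.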
